A study of Mus musculus with 12 samples.

Results

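The genes described here make, break down and respond to cyclic AMP (cAMP), together with the related enzymes and scaffolds that share their names, in mouse embryonic fibroblasts (MEFs). They were taken by symbol, under a rule chosen with earlier results of these data known. It covers genes with a probe set of a single symbol on the Affymetrix Mouse Genome 430A 2.0 array. The symbol had to start with Adcy, Pde and a digit, Prkar, Prkac, Prkg, Pkia, Pkib, Pkig, Akap or Rapgef. The rule took 53 of the 12393 genes with such a probe set, on 92 probe sets, and 27 of the 53 had more than 1. Of the 53, 43 passed the filter on dim genes and were tested. The 10 that did not were Akap3, Akap4, Akap7, Pde1c, Pde6a, Pde6b, Pde6c, Pde9a, Pkib and Prkar2a.

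The study treated MEFs with chemical combinations named SGCF and 6TCF, under a title about turning fibroblasts into several other lineages. It holds 12 arrays in 6 groups of 2, with both combinations sampled at days 0, 5 and 10. All cultures were MEFs plated in serum medium and moved the next day to a medium with more serum and basic fibroblast growth factor. The mouse strain and the compounds in each combination, including whether either holds an activator of adenylyl cyclase, are not stated in the sources used here. No untreated day 5 or day 10 culture was analysed here, so a change from day 0 also holds the time in culture. It holds the change of medium too if day 0 was sampled before the move. Whether the 2 arrays of a group came from separate embryos or cultures is not given either, so every p-value measures only the spread between these samples, which may be technical.

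As background, adenylyl cyclases make cAMP from ATP when receptors coupled to the stimulatory G protein are active, and phosphodiesterases hydrolyse it. cAMP releases the catalytic subunits of protein kinase A (PKA) from its regulatory subunits and also opens the exchange factor Epac, encoded by Rapgef3. Heat-stable inhibitors of the Pkia family block the free catalytic subunits, and A-kinase anchoring proteins (AKAPs) hold PKA at its sites in the cell. PKA phosphorylates the transcription factor CREB, which binds the cAMP response element (CRE), and some genes of the pathway are CREB targets themselves. In fibroblasts, cAMP is known for countering contraction and matrix production.

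To show what lies in front of some members described here, the 250 bases before each start site that RefSeq lists (GRCm38.p6) were searched for the full CRE, TGACGTCA, and for its core, TGACG, read on both strands as TGACG or CGTCA. A full CRE always contains the core. Start sites were listed for 41 of the 53 members, in 83 windows. The full CRE was in 1 of these windows (1.20%), against 1.55% of all 32851 windows of the same length. The core was in 18 windows (21.7%) of 15 members, against 17.8% of all windows. A match is a description of the letters and not a bound site. The first pair of windows printed here belongs to the cyclase and the phosphodiesterase with the largest rises by day 10. These are Adcy2 (chr13:68999542-68999791, minus strand) and an internal start of Pde7b (chr10:20548329-20548578, minus strand), which lies inside the annotated gene. The other pair belongs to PKA regulatory subunits and was chosen for its CRE or core. It holds internal starts of Prkar1b (chr5:139150002-139150251, minus strand) and of Prkar1a (chr11:109650699-109650948, plus strand). Each runs 5′ to 3′ and ends at the base before the start site, and capitals mark the CRE or its core.
Adcy2: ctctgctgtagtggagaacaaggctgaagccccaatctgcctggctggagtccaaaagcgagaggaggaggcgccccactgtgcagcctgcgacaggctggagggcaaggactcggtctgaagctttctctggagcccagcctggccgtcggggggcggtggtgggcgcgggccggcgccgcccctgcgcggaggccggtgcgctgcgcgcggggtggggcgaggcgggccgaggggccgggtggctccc
Pde7b: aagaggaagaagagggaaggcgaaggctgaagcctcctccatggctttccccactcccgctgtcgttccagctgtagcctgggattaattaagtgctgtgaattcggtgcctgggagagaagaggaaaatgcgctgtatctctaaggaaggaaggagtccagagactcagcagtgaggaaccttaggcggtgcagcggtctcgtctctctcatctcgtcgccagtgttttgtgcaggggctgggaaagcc
Prkar1b: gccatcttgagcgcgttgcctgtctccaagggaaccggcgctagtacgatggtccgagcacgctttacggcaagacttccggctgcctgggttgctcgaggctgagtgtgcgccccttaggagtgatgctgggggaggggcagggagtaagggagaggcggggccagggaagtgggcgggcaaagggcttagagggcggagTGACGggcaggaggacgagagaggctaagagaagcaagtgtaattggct
Prkar1a: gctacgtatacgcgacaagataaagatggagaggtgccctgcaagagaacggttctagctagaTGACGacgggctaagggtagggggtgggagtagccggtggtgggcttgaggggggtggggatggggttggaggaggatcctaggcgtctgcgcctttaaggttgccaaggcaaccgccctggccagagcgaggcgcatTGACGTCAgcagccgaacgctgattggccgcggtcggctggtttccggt
The Prkar1a window held the sole full CRE among the members, and this Prkar1b window 1 core, while none was in the windows of the other Prkar1b start sites. Neither string was in the Adcy2 and Pde7b windows printed here, and the window of Adcy9, another cyclase that rose, held 1 core. Windows of Pkia, Akap12 and Prkg2 were not used here.

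Values below are log2 levels, that is log2(intensity + 16) after quantile normalization, and a change is a difference of 2 group means on that scale, which understates the fold of dim genes. Each change was tested with limma over 10674 genes in a single fit of the 12 arrays. It was called where the Benjamini-Hochberg adjusted p was under 0.05 over all those genes, and "rose" and "fell" are used of called changes alone. With 2 arrays a group, the standard error (SE) of a change rests on the spread within all 6 groups. Before normalization, array medians were 60.9 to 86.2 intensity units in SGCF and 102.4 to 142 in 6TCF. Array brightness and arm therefore cannot be told apart, and levels of the arms are set side by side after normalization alone. All 10 fibroblast markers passed the filter, with a mean log2 level of 11.9 to 12.5 on every array. Macrophage markers were also present. Their mean log2 level over 18 genes was 8.12 to 8.17 at day 0, 5.72 to 5.85 at day 5 and 5.58 to 5.71 at day 10 in SGCF. In 6TCF it was 7.06 to 7.11 at day 0, 5.77 to 5.95 at day 5 and 6.28 to 6.33 at day 10. Skeletal muscle markers, 10 genes of which 9 were tested, stood apart on 1 array: their mean log2 level was 7.35 on 6TCF day 10 replicate 2, against 6.18 on replicate 1 and 5.71 to 6.69 on the other 10 arrays. In 6TCF 4 of the 9 rose and 2 fell by day 10. In a bulk sample, fewer cells of a type and less RNA per cell cannot be told apart.

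In SGCF, 10 members rose and 4 fell by day 5, 14 in all or 32.6% of the 43 tested, against 25.4% of all genes tested (12.8% higher and 12.6% lower). By day 10, 14 rose and 8 fell, 51.2% of the 43, against 38.6% of all genes (20.5% higher and 18.2% lower). In 6TCF, 7 rose and 5 fell by day 5, 27.9% against 27.6% of all genes (15.1% higher and 12.4% lower). By day 10, 8 rose and 11 fell, 44.2% against 43.1% (23.2% higher and 19.9% lower). The shares in 6TCF were thus near the background. The members' median change was 0.14 in SGCF at day 5, where that of all genes was 0.02, and 0.27 at day 10, where that of all genes was 0.03. It was -0.06 in 6TCF at day 5, where that of all genes was 0, and -0.18 at day 10, where that of all genes was -0.01. In all, 31 members were called in at least 1 of these 4 comparisons, 5 in all 4 (Adcy2, Adcy9, Akap12, Pde7b and Pde10a) and 12 in none. The matching shares of all genes were not computed, so these last counts only describe the members and set nothing against the background.

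The split of these calls depends on the normalization. Without normalization between arrays, 6 members were higher and 7 lower in SGCF at day 5, and 5 higher and 8 lower at day 10. In 6TCF the same setting gave 2 higher and 9 lower at day 5, and 5 higher and 12 lower at day 10. Scaling to a common median gave 7 higher and 8 lower in 6TCF at day 5. Single arrays also moved the 6TCF counts by over 1.5 times: 6 members were called at day 5 without 6TCF day 0 replicate 1. At day 10, 11 were called without 6TCF day 0 replicate 2 and 11 without 6TCF day 10 replicate 1.

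**Figure D1:**
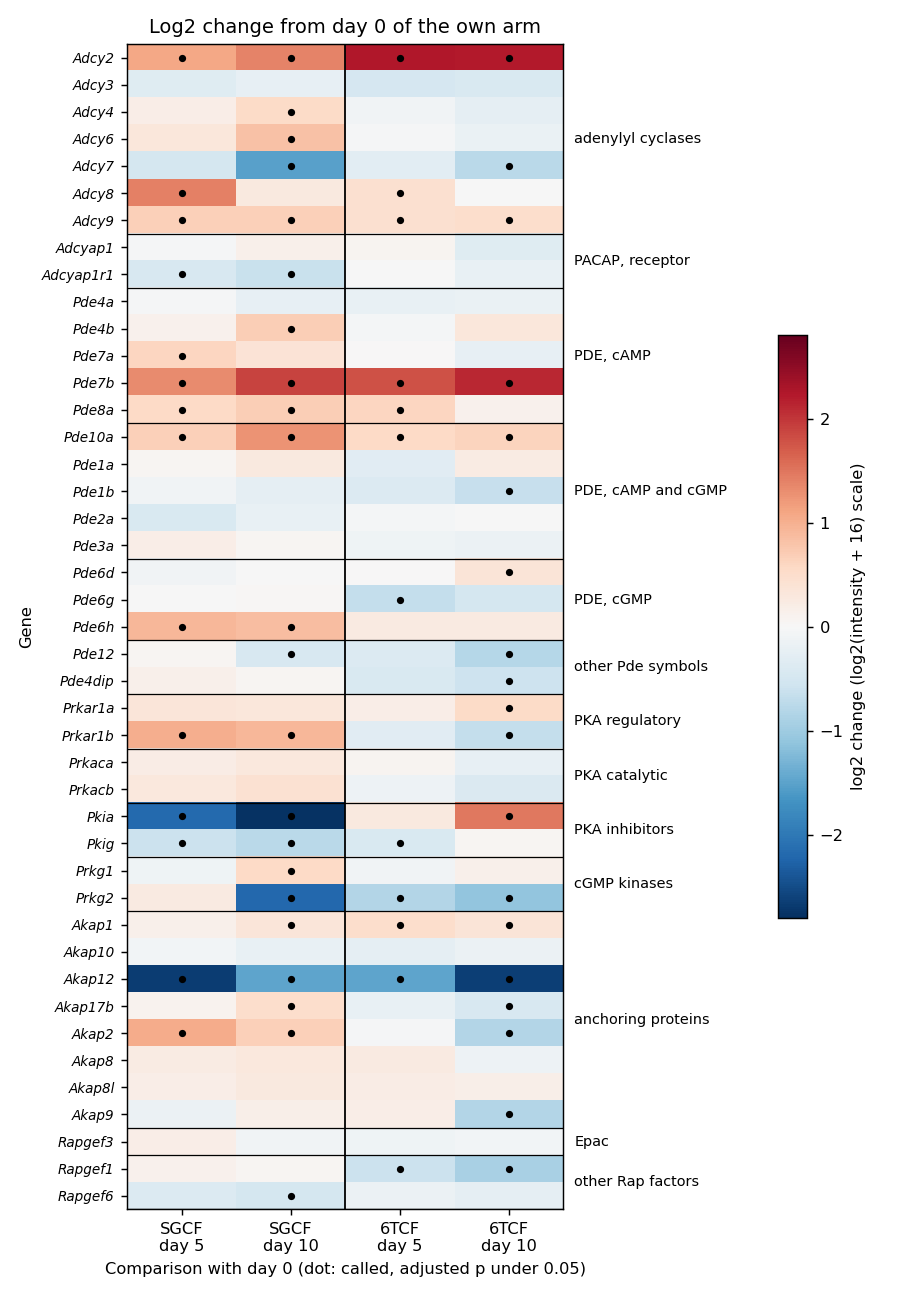
Log2 change from day 0 of the same arm for the 43 members tested (rows, grouped by role), in SGCF at day 5 and day 10 (left) and in 6TCF at day 5 and day 10 (right). Red is higher and blue lower than day 0, and a black dot marks a called change. Adcy2, Adcy9, Pde7b and Pde10a were called higher in all 4 columns, Akap12 was called lower in all 4, and Pkia was blue in SGCF and red in 6TCF.

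Adenylyl cyclases, the enzymes that make cAMP, mostly rose where they were called. All 7 on the array were tested. In SGCF 3 rose and none fell by day 5, where 12.8% of all genes were called higher and 12.6% lower. By day 10, 4 rose and 1 fell there, where these shares were 20.5% and 18.2%. In 6TCF 3 rose and none fell by day 5, against 15.1% and 12.4% of all genes. By day 10, 2 rose and 1 fell in 6TCF, against 23.2% and 19.9%, so the called share was near the 43.1% of all genes. Adcy2, a cyclase known from brain that G protein beta-gamma subunits can stimulate, had the largest rise of the cyclases at day 10. It is annotated at chr13:68620043-68999600 (GRCm38.p6), and its promoter window is printed above. In SGCF it had log2 levels of 7.13 and 7.02 at day 0, 8.25 and 8.06 at day 5, and 8.49 and 8.43 at day 10. In 6TCF it had 6.76 and 6.78 at day 0, 9.08 and 8.94 at day 5, and 8.93 and 9.04 at day 10. No treated array overlapped a day 0 array, and both 6TCF arrays were above both SGCF arrays at day 5 and at day 10. The change was 1.08 (SE 0.12, limma adjusted p = 3.75e-05) at day 5 and 1.38 (adjusted p = 3.46e-06) at day 10 in SGCF. In 6TCF it was 2.24 (SE 0.12, limma adjusted p = 1.03e-07) at day 5 and 2.21 (adjusted p = 7.43e-08) at day 10. The rise was smaller in SGCF than in 6TCF by 1.16 at day 5 (limma adjusted p = 0.0012 for the difference between the arms) and by 0.83 at day 10 (adjusted p = 0.00519).

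Adcy8, a cyclase that calcium and calmodulin stimulate and that is best known from neurons, was high on the SGCF day 5 arrays alone. Its SGCF log2 levels were 4.58 and 4.78 at day 0, 6.09 and 6.10 at day 5, and 5.12 and 4.80 at day 10. The 6TCF arrays held 4.80 and 4.81 at day 0, 5.22 and 5.26 at day 5, and 4.73 and 4.83 at day 10. The level at day 0 was below the filter level of 5.27 in both arms, so the size of the rise depends on the pseudocount. The change by day 5 was 1.41 in SGCF (limma adjusted p = 8.96e-06) and 0.44 in 6TCF (adjusted p = 0.0263), and the arms differed by 0.97 (adjusted p = 0.00611). From day 5 to day 10 Adcy8 fell by 1.14 in SGCF (limma adjusted p = 9.94e-05) and by 0.46 in 6TCF (adjusted p = 0.036). Without any of the 4 6TCF day 0 and day 5 arrays, the rise in 6TCF was 0.41 to 0.46 and not called. The fall from day 5 in 6TCF was not called without any of the 6 6TCF arrays. The difference between the arms was not called with cyclic loess or without normalization.

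Markers of neurons changed from day 0 to day 5 in both arms. Of 10 neuronal markers, 7 were tested; 5 rose and 1 fell by day 5 in SGCF, and 5 rose and none fell in 6TCF. Their mean log2 level was 5.92 to 5.98 at day 0, 7.43 at day 5 and 6.47 to 6.77 at day 10 in SGCF. It was 6.04 to 6.08 at day 0, 7.28 to 7.36 at day 5 and 6.65 to 6.95 at day 10 in 6TCF. Not all went up: Tubb3 was 7.70 at day 0 and 6.03 at day 5 in SGCF, and Map2, Rbfox3 and Dcx did not pass the filter. The rise of Adcy8 by day 5 was 1.41 in SGCF and 0.44 in 6TCF. Adcy2 was at 8.43 to 8.49 in SGCF and 8.93 to 9.04 in 6TCF at day 10. The part of these markers in the levels of Adcy2 and Adcy8 was not tested.

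Adcy7, a cyclase abundant in blood and immune cells, was the sole cyclase that fell against day 0. In SGCF it had log2 levels of 8.22 and 8.31 at day 0, 7.66 and 7.88 at day 5, and 6.43 and 7.05 at day 10. In 6TCF it had 7.91 and 8.07 at day 0, 7.77 and 7.63 at day 5, and 7.23 and 7.26 at day 10. All day 10 arrays lay below all day 0 arrays. The fall by day 10 was 1.52 in SGCF and 0.75 in 6TCF; the changes were -1.52 (limma adjusted p = 3.97e-05) and -0.75 (adjusted p = 0.00509). The arms differed by -0.77 (adjusted p = 0.0428). That difference was -0.22 and -0.08 on the gene's other probe sets and not called there, and it kept its call without SGCF day 0 replicate 1, SGCF day 5 replicate 2 or SGCF day 10 replicate 2 but not without any of the other 9 arrays, with values from -1.09 to -0.47. Most macrophage markers were also lower at day 10: 16 of the 17 tested fell by then in SGCF and 12 in 6TCF. The list had median changes of -2.705 in SGCF and -0.85 in 6TCF. In SGCF the markers' mean level was 8.12 to 8.17 at day 0, 5.72 to 5.85 at day 5 and 5.58 to 5.71 at day 10. The Adcy7 group means there were 8.26, 7.77 and 6.74 at the same days. Both SGCF day 5 arrays of Adcy7 lay below both day 0 arrays, though that change was not called. From day 5 to day 10 Adcy7 fell by 1.02 in SGCF. In 6TCF the markers' mean was 7.06 to 7.11 at day 0, 5.77 to 5.95 at day 5 and 6.28 to 6.33 at day 10. The Adcy7 group means there were 7.99, 7.70 and 7.24. The markers' part in the level of Adcy7 was not tested.

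The other cyclases changed less than 2-fold. Adcy9, a widely expressed cyclase, rose in both arms, by 0.67 at day 5 and 0.68 at day 10 in SGCF (limma adjusted p = 0.00552 and 0.00324) and by 0.46 and 0.50 in 6TCF (adjusted p = 0.0346 and 0.0161). Its 6TCF rise at day 5 was 0.24 to 0.66 over single arrays left out and lost its call without 6TCF day 0 replicate 2 or any 6TCF day 5 or day 10 array. At day 10 it lost its call without 6TCF day 0 replicate 2 or either 6TCF day 10 array (0.28 to 0.70). Both 6TCF calls of Adcy9 were also lost over the mean of its probe sets and with the 4 day 0 arrays as 1 baseline. Adcy6, which calcium inhibits, rose in SGCF alone by this test, by 0.82 at day 10 (limma adjusted p = 0.00485), where the 6TCF change was -0.18. That rise was 0.47 without SGCF day 0 replicate 2, still called, and 0.45 and not called without normalization between arrays. Adcy4 rose by 0.54 in SGCF at day 10 (adjusted p = 0.00832), where the 6TCF change was -0.26. The arms differed by 1.00 for Adcy6 (limma adjusted p = 0.019) and by 0.80 for Adcy4 (adjusted p = 0.0122). The Adcy6 difference was not called without 6TCF day 0 replicate 2, 6TCF day 10 replicate 1 or SGCF day 10 replicate 1 (0.65 to 1.35). The Adcy4 difference was not called without replicate 1 of 6TCF day 0 or of 6TCF day 10 (0.66 to 0.91), nor the Adcy4 rise without SGCF day 10 replicate 1 (0.50 to 0.59). Of the receptor side among the members, Adcyap1r1, the receptor of the cyclase-activating peptide PACAP, fell in SGCF by 0.45 at day 5 (limma adjusted p = 0.0351) and 0.61 at day 10 (adjusted p = 0.00464). The day 5 call was lost without any SGCF day 0, SGCF day 5 or 6TCF day 10 array (-0.53 to -0.38) and, for Adcyap1r1, in 6 of 10 other settings. The gene of PACAP itself, Adcyap1, was called in none of the comparisons with day 0.

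**Figure D2:**
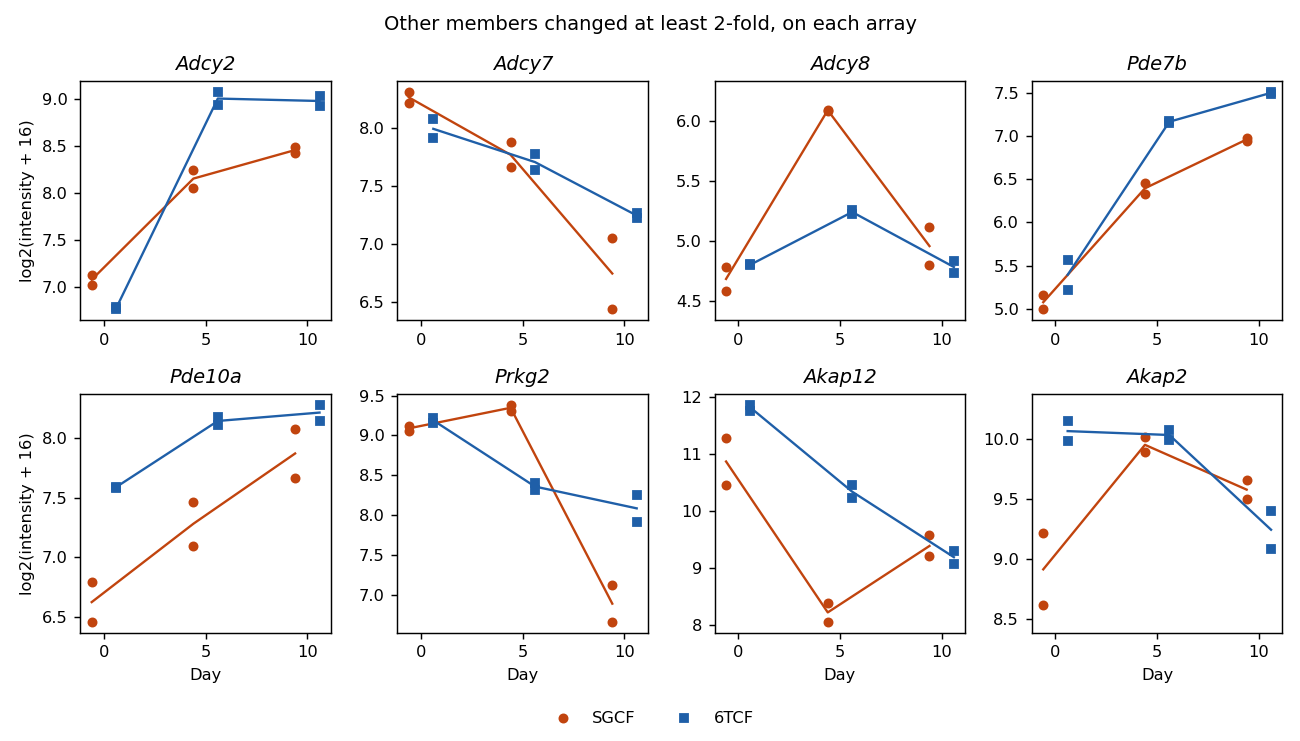
Log2 level, log2(intensity + 16) after quantile normalization, of 8 members called and changed at least 2-fold, on each array against the day (0, 5 or 10); circles are SGCF arrays, squares 6TCF arrays, drawn slightly apart, and lines join the group means. Each panel has its own vertical axis. Pde7b and Adcy2 climb in both arms, Adcy8 peaks at day 5 in SGCF, and the SGCF day 10 arrays of Prkg2 sit at 7.12 and 6.66, below all others.

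Of the genes named as phosphodiesterases of cyclic nucleotides, 18 were on the array and 13 were tested, the small Pde6 subunits Pde6g and Pde6h and the chaperone Pde6d included. Without these, 15 were on the array and 10 tested. In SGCF 4 of the 10 rose and none fell at each day. Of all genes, 12.8% were called higher and 12.6% lower there at day 5, and 20.5% and 18.2% at day 10. In 6TCF 3 rose and none fell by day 5, against 15.1% and 12.4% of all genes. By day 10, 2 rose and 1 fell in 6TCF, against 23.2% and 19.9%. Pde7b, a high-affinity phosphodiesterase specific for cAMP (chr10:20397052-20725078), rose most. Its SGCF log2 levels were 5.16 and 4.99 at day 0, 6.33 and 6.46 at day 5, and 6.94 and 6.98 at day 10. Its 6TCF levels were 5.56 and 5.22 at day 0, 7.18 and 7.16 at day 5, and 7.52 and 7.49 at day 10. The groups did not overlap, and the day 0 level was near the filter level. The change was 1.32 (SE 0.13, limma adjusted p = 1.73e-05) at day 5 and 1.89 (adjusted p = 6.32e-07) at day 10 in SGCF. In 6TCF it was 1.78 (SE 0.13, limma adjusted p = 1.47e-06) at day 5 and 2.11 (adjusted p = 2.34e-07) at day 10. The gene's other probe set rose too, by 0.84 and 1.47 in SGCF and by 1.22 and 1.33 in 6TCF. The arms were not called different, at -0.45 at day 5 (adjusted p = 0.172) and -0.22 at day 10 (adjusted p = 0.412). From day 5 to day 10 Pde7b rose further in SGCF, by 0.57 (limma adjusted p = 0.00967), a call lost without SGCF day 5 replicate 1 or SGCF day 10 replicate 2 (0.51 to 0.64).

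Pde10a, which hydrolyses both cAMP and cGMP and is known from striatal neurons, was called higher in both arms at both days. Its SGCF log2 levels were 6.79 and 6.46 at day 0, 7.09 and 7.47 at day 5, and 7.67 and 8.08 at day 10. Its 6TCF levels were 7.58 and 7.59 at day 0, 8.11 and 8.18 at day 5, and 8.15 and 8.28 at day 10. The SGCF arrays started lower, by 0.97 at day 0 (limma adjusted p = 0.00439 against 6TCF day 0), and were above both 6TCF day 0 arrays by day 10. The change by day 10 was 1.25 in SGCF (limma adjusted p = 0.000138) and 0.63 in 6TCF (adjusted p = 0.0113). By day 5 it was 0.66 in SGCF (adjusted p = 0.0148) and 0.56 in 6TCF (adjusted p = 0.0307). These rises rest on 1 probe set: another gave 0.02 in SGCF and 0.15 in 6TCF at day 10, neither called, and the remaining one did not pass the filter. With the 4 day 0 arrays as 1 baseline, the SGCF rise was not called. The 6TCF calls were lost without either 6TCF day 0 array, without either 6TCF day 5 array at day 5 (0.52 to 0.59) and without 6TCF day 10 replicate 2 at day 10 (0.56 to 0.69). The SGCF call at day 5 was lost without SGCF day 0 replicate 2 or SGCF day 5 replicate 2 (0.48 to 0.85).

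Smaller changes were found for other phosphodiesterases. Pde4b, a cAMP-specific enzyme, rose by 0.69 in SGCF at day 10 (limma adjusted p = 0.00325), and its other probe set rose by 1.14 (adjusted p = 7.6e-05). In 6TCF at day 10 these probe sets gave 0.32 and 0.14, neither called. Pde8a, a high-affinity cAMP enzyme, rose in SGCF by 0.56 at day 5 (limma adjusted p = 0.0108) and 0.70 at day 10 (adjusted p = 0.00185). In 6TCF it rose by 0.61 at day 5 (adjusted p = 0.00611) and was 0.12 above day 0 at day 10, not called. The Pde8a difference between the arms at day 10 was 0.58 (limma adjusted p = 0.0486). It kept its call without SGCF day 0 replicate 1 but not without any of the other 11 arrays (0.38 to 0.78). That difference was also not called in 5 of 9 other settings, median scaling and cyclic loess among them. The SGCF rise of Pde8a at day 5 was not called without SGCF day 0 replicate 2 or either SGCF day 5 array (0.36 to 0.76). Its 6TCF rise at day 5 was not called without 6TCF day 0 replicate 1 (0.58 to 0.64). Pde7a, related to Pde7b, rose by 0.60 in SGCF at day 5 (adjusted p = 0.0185), a call lost without either SGCF day 0 array or SGCF day 5 replicate 1 (0.39 to 0.81). Pde1b, which calmodulin activates, fell by 0.65 in 6TCF at day 10 (adjusted p = 0.0383), a call lost without any of the 6 6TCF arrays (-0.71 to -0.58).

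The Pde6 genes are named after the photoreceptor enzyme that hydrolyses cGMP. Of those called, Pde6h and Pde6g code for its small subunits and Pde6d for a chaperone. Pde6h, the inhibitory subunit in cones, rose in SGCF by 0.93 at day 5 (limma adjusted p = 0.000769) and 0.87 at day 10 (adjusted p = 0.000842). These rises rest on the choice of probe set. The brightest probe set was chosen anew whenever an array was left out. Without SGCF day 10 replicate 2 the values were 0.18 and 0.04, neither called. The day 5 change does not use that array, so these values reflect the other of the gene's 2 probe sets. Pde6g, the rod inhibitory subunit, fell by 0.68 in 6TCF at day 5 (adjusted p = 0.0211), and lost its call without 6TCF day 0 replicate 1 or either 6TCF day 5 array (-0.79 to -0.55). Pde6d, a chaperone of lipid-modified proteins, was 0.35 higher in 6TCF at day 10 (adjusted p = 0.0339). That call was lost without 6TCF day 0 replicate 2 or either 6TCF day 10 array (0.23 to 0.47), and the value was -0.04 with all 4 day 0 arrays as 1 baseline. At day 0 itself Pde6d was 0.79 higher in SGCF than in 6TCF (limma adjusted p = 0.00196). Outside the cyclic nucleotide enzymes, Pde12, a mitochondrial RNA enzyme, fell by 0.46 in SGCF (limma adjusted p = 0.0191) and by 0.79 in 6TCF (adjusted p = 0.000588) by day 10. The SGCF call was lost without SGCF day 10 replicate 2 (-0.60 to -0.32). Pde4dip, the scaffold myomegalin, fell by 0.59 in 6TCF at day 10 (adjusted p = 0.0121) and lost its call without 6TCF day 0 replicate 2 or 6TCF day 10 replicate 1 (-0.70 to -0.46).

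The PKA inhibitors held the widest difference between the arms among the members tested. Pkia (chr3:7366604-7445366) codes for the alpha form of the heat-stable inhibitor, which occupies the substrate site of the catalytic subunits and carries them out of the nucleus. In SGCF its log2 levels were 8.01 and 8.64 at day 0, 6.02 and 6.26 at day 5, and 5.43 and 5.70 at day 10. In 6TCF they were 8.40 and 8.24 at day 0, 8.44 and 8.76 at day 5, and 9.85 and 9.77 at day 10. The arms overlapped at day 0, and at day 10 both SGCF arrays were near the filter level while both 6TCF arrays were above every other array. In quantile-normalized intensity units the day 10 values were 27.1 and 35.9 in SGCF and 903.9 and 855.2 in 6TCF. Pkia fell in SGCF by 2.19 at day 5 (SE 0.20, limma adjusted p = 7.1e-06) and by 2.76 at day 10 (adjusted p = 7.26e-07). In 6TCF it was 0.28 above day 0 at day 5, not called (adjusted p = 0.343), and rose by 1.48 at day 10 (limma adjusted p = 9.91e-05). The change in SGCF minus that in 6TCF was -2.47 at day 5 (limma adjusted p = 0.000228) and -4.25 at day 10 (SE 0.28, adjusted p = 8.55e-06). Its other probe set gave -2.09 and -3.15 for the same differences, both called. No array left out and no other setting tried ended a call of Pkia, and without 6TCF day 10 replicate 2, the array high in skeletal muscle markers, its rise in 6TCF by day 10 was 1.52.

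Pkig (chr2:163658211-163726158), the gamma form of the inhibitor, is widely expressed. Its SGCF log2 levels were 10.11 and 10.14 at day 0, 9.64 and 9.43 at day 5, and 9.38 and 9.38 at day 10. Its 6TCF levels were 9.21 and 9.002 at day 0, 8.59 and 8.76 at day 5, and 9.15 and 9.18 at day 10. The SGCF arrays were above the 6TCF arrays at every day. Pkig fell in SGCF by 0.595 at day 5 (SE 0.13, limma adjusted p = 0.00435) and 0.75 at day 10 (adjusted p = 0.000613). In 6TCF it fell by 0.43 at day 5 (adjusted p = 0.0224) and was 0.05 above day 0 at day 10, not called. The arms differed by -0.80 at day 10 (limma adjusted p = 0.00804) and, at day 0 itself, by 1.02 (adjusted p = 0.000527). With the 4 day 0 arrays as 1 baseline the SGCF changes were -0.09 and -0.24, not called, and the difference at day 0 was 0.23, not called, without normalization. The 6TCF fall at day 5 was not called without replicate 1 of 6TCF day 0 or of 6TCF day 5 (-0.54 to -0.33), or over the mean of the probe sets. Pkib, the beta form, did not pass the filter, with log2 levels of 4.60 to 4.97 on all 12 arrays.

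**Figure D3:**
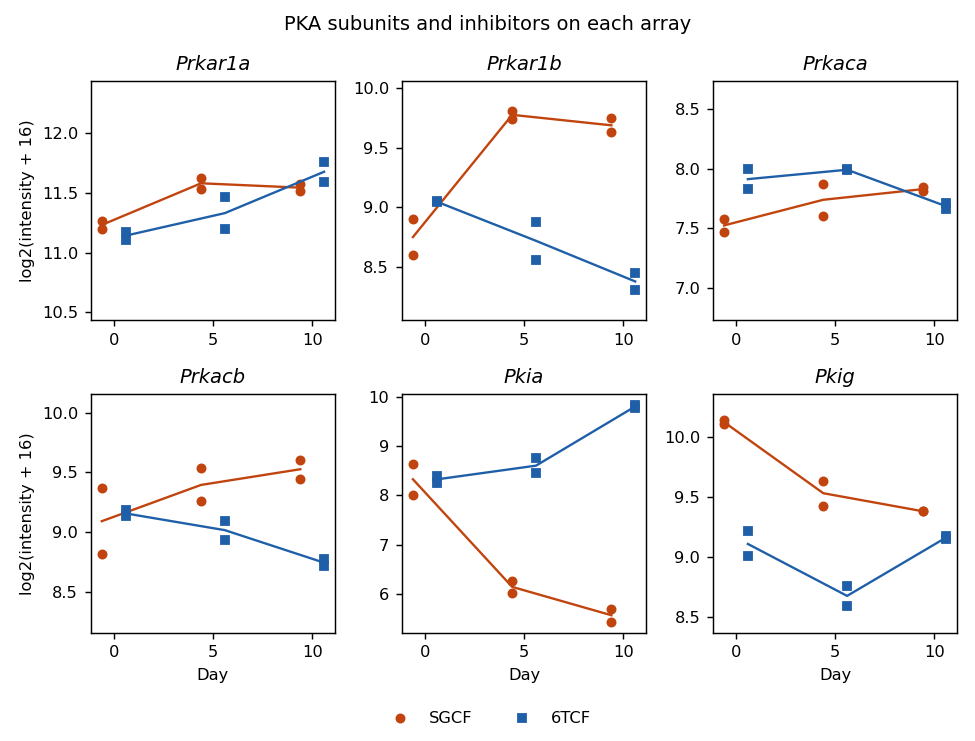
Log2 level, log2(intensity + 16) after quantile normalization, of the 6 PKA subunits and inhibitors tested, on each array against the day (0, 5 or 10); circles are SGCF arrays, squares 6TCF arrays, drawn slightly apart, and lines join the group means. Each panel has its own vertical axis. Pkia and Prkar1b part by arm in opposite directions, with SGCF lower for Pkia and higher for Prkar1b at day 10.

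The regulatory subunit Prkar1b (chr5:139017304-139150703), a form enriched in neurons, moved the other way to Pkia. In SGCF its log2 levels were 8.90 and 8.60 at day 0, 9.74 and 9.81 at day 5, and 9.63 and 9.74 at day 10. In 6TCF they were 9.05 and 9.05 at day 0, 8.88 and 8.56 at day 5, and 8.31 and 8.45 at day 10. Both SGCF arrays were below both 6TCF arrays at day 0 and above them at day 5 and day 10. Prkar1b rose in SGCF by 1.02 at day 5 (SE 0.14, limma adjusted p = 0.000249) and 0.93 at day 10 (adjusted p = 0.000316). In 6TCF it was 0.33 below day 0 at day 5, not called (adjusted p = 0.117), and fell by 0.67 at day 10 (limma adjusted p = 0.00277). The change in SGCF minus that in 6TCF was 1.35 at day 5 (limma adjusted p = 0.00143) and 1.60 at day 10 (adjusted p = 0.000299). The chosen probe set is of the type that can also bind related transcripts. Of its other probe sets, 1 gave 0.89 and 0.88 for these differences, called, and the other 0.81 and 0.71, not called. No array left out and no other setting tried ended a call of Prkar1b.

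The other PKA subunits changed less. Prkar1a, the widely expressed regulatory subunit (chr11:109649023-109669663) whose internal promoter window with the full CRE is printed above, was called in 1 of the 4 comparisons with day 0. In SGCF it had log2 levels of 11.20 and 11.26 at day 0, 11.53 and 11.63 at day 5, and 11.52 and 11.57 at day 10. In 6TCF it had 11.17 and 11.11 at day 0, 11.20 and 11.46 at day 5, and 11.76 and 11.59 at day 10. It rose by 0.53 in 6TCF at day 10 (SE 0.13, limma adjusted p = 0.00471), a call lost without 6TCF day 10 replicate 1 (0.45), and its other probe set gave 0.13, not called. In SGCF the changes of 0.35 and 0.31 had adjusted p of 0.0623 and 0.0694. Prkar2a did not pass the filter, with log2 levels of 4.70 to 5.36 on all arrays.

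Both catalytic subunits were called in no comparison with day 0. Prkaca had log2 levels of 7.85 and 7.81 in SGCF at day 10, 7.58 and 7.47 in SGCF at day 0, 7.66 and 7.71 in 6TCF at day 10, and 7.998 and 7.83 in 6TCF at day 0. Prkacb had 9.45 and 9.60 in SGCF at day 10, 9.37 and 8.82 in SGCF at day 0, 8.71 and 8.78 in 6TCF at day 10, and 9.18 and 9.13 in 6TCF at day 0. The change in SGCF minus that in 6TCF at day 10 was 0.53 for Prkaca (limma adjusted p = 0.046) and 0.85 for Prkacb (adjusted p = 0.0258). The Prkaca difference kept its call without SGCF day 0 replicate 1 or either SGCF day 5 array but not without any of the other 9 arrays (0.44 to 0.61). It was also not called in 4 of 9 other settings, cyclic loess and the replicate block among them. The Prkacb difference was not called without any 6TCF day 0 or day 10 array, SGCF day 0 replicate 2 or SGCF day 10 replicate 2 (0.57 to 1.13). The other Prkacb probe set gave 0.28, not called.

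The kinases that respond to cGMP were on the array too. Prkg2 (chr5:98929773-99037375), the membrane-bound form, had SGCF log2 levels of 9.12 and 9.06 at day 0, 9.30 and 9.39 at day 5, and 7.12 and 6.66 at day 10. In 6TCF it had 9.15 and 9.22 at day 0, 8.41 and 8.31 at day 5, and 7.91 and 8.25 at day 10. It fell late in SGCF and by day 5 in 6TCF on this probe set. The change by day 10 was -2.20 in SGCF (SE 0.16, limma adjusted p = 8.53e-07) and -1.10 in 6TCF (adjusted p = 0.00019). By day 5 it was 0.26 in SGCF (not called, adjusted p = 0.274) and -0.83 in 6TCF (limma adjusted p = 0.00224). The arms differed by 1.09 at day 5 (limma adjusted p = 0.0102) and by -1.10 at day 10 (adjusted p = 0.00563). The gene's other probe set fell in SGCF at day 10 as well, by 1.06, but gave 0.27 and 0.36 in 6TCF, neither called. Over the mean of both probe sets the day 5 change in 6TCF was -0.28 and not called, nor was the day 5 difference. Prkg1, the soluble form, rose by 0.57 in SGCF at day 10 (limma adjusted p = 0.0102) from a level at day 0 that was 1.19 below that of 6TCF (adjusted p = 0.000579). That rise was lost without SGCF day 10 replicate 2 (0.36), and the value was -0.03 with the 4 day 0 arrays as 1 baseline.

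**Figure D4:**
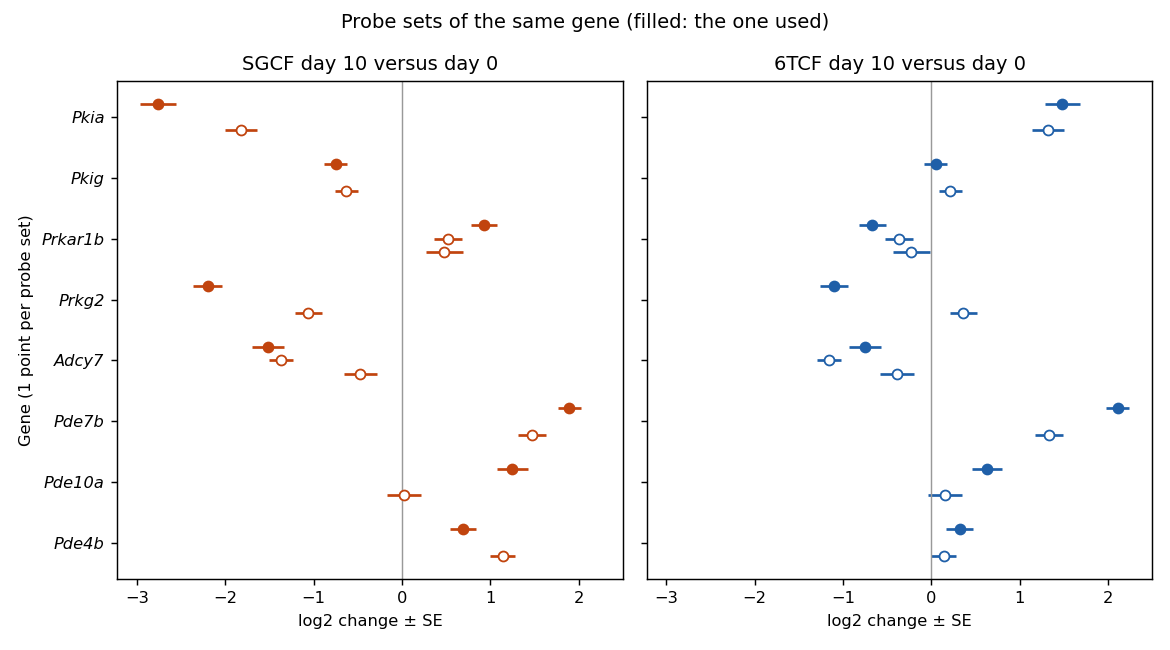
Log2 change by day 10 ± SE of each tested probe set of 8 members, in SGCF (left) and 6TCF (right); each row is a gene, each point a probe set, and filled points are the probe sets used in the text. Both Pkia probe sets lie left of 0 in SGCF and right of 0 in 6TCF, while those of Prkg2 lie on opposite sides of 0 in 6TCF and those of Pde10a differ in both arms.

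Of the AKAPs, 11 were on the array and 8 were tested. In SGCF 1 rose and 1 fell by day 5, where 12.8% of all genes were called higher and 12.6% lower. By day 10, 3 rose and 1 fell there, where these shares were 20.5% and 18.2%. In 6TCF 1 rose and 1 fell by day 5, against 15.1% and 12.4% of all genes. By day 10, 1 rose and 4 fell in 6TCF, against 23.2% and 19.9%. Akap12 (chr10:4266329-4359471), also named gravin or SSeCKS, holds PKA and protein kinase C near the cell membrane and cytoskeleton. Its SGCF log2 levels were 11.28 and 10.45 at day 0, 8.05 and 8.38 at day 5, and 9.20 and 9.57 at day 10. Its 6TCF levels were 11.76 and 11.87 at day 0, 10.22 and 10.45 at day 5, and 9.07 and 9.30 at day 10. Within each arm all later arrays lay below both day 0 arrays, SGCF was lowest at day 5, and 6TCF was lowest at day 10. Akap12 fell in SGCF by 2.65 at day 5 (SE 0.24, limma adjusted p = 6.5e-06) and by 1.48 at day 10 (adjusted p = 0.000421). In 6TCF it fell by 1.48 at day 5 (limma adjusted p = 0.000608) and by 2.63 at day 10 (adjusted p = 4.36e-06). From day 5 to day 10 it rose by 1.17 in SGCF (limma adjusted p = 0.00421) and fell by 1.15 in 6TCF (adjusted p = 0.00955). The difference between the arms was -1.17 at day 5, not called (adjusted p = 0.0511), and 1.14 at day 10 (adjusted p = 0.0282). The day 10 difference was not called without either 6TCF day 0 array, 6TCF day 10 replicate 1, SGCF day 0 replicate 2 or SGCF day 10 replicate 2 (0.73 to 1.56). The late fall in 6TCF was not called without replicate 1 of 6TCF day 5 or of 6TCF day 10 (-1.27 to -1.03).

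Akap2, a scaffold at the actin cytoskeleton, differed between the arms at day 0. In SGCF its log2 levels were 9.21 and 8.61 at day 0, 9.89 and 10.02 at day 5, and 9.50 and 9.66 at day 10. In 6TCF they were 10.15 and 9.99 at day 0, 10.08 and 10.00 at day 5, and 9.08 and 9.40 at day 10. SGCF day 0 was 1.16 below 6TCF day 0 (limma adjusted p = 0.00257), and by day 10 SGCF was above 6TCF. The gene rose in SGCF by 1.04 at day 5 (limma adjusted p = 0.00131) and 0.67 at day 10 (adjusted p = 0.0132), and it fell in 6TCF by 0.82 at day 10 (adjusted p = 0.00347). With the 4 day 0 arrays as 1 baseline these were 0.46, 0.09 and -0.25, and none was called. The difference between the arms was 1.07 at day 5 (limma adjusted p = 0.023) and 1.49 at day 10 (adjusted p = 0.00224). The day 5 difference was not called without any 6TCF day 0, 6TCF day 5 or SGCF day 5 array (0.77 to 1.38). The SGCF rise at day 10 was not called without replicate 2 of SGCF day 0 or of SGCF day 10 (0.36 to 0.97).

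Among the AKAPs that changed less than 2-fold, Akap9, a scaffold of the centrosome and Golgi, fell by 0.81 in 6TCF at day 10 (limma adjusted p = 0.0187). It was also 1.04 lower in SGCF than in 6TCF at day 0 (adjusted p = 0.0165). The fall was not called without either 6TCF day 0 array or 6TCF day 10 replicate 1 (-0.92 to -0.70), and the day 0 difference without either 6TCF day 0 array or SGCF day 0 replicate 2 (-1.36 to -0.72). Akap17b was 0.49 higher in SGCF at day 10 (limma adjusted p = 0.0369) and 0.45 lower in 6TCF (adjusted p = 0.0465), and the arms differed by 0.94 (adjusted p = 0.0149). Without 1 array these values ranged from 0.27 to 0.71 and from -0.49 to -0.41, and 6 arrays ended each call, among them every 6TCF day 0 and day 10 array. The 6TCF call of Akap17b was also lost in 7 of 11 other settings, median scaling, cyclic loess and no filter among them. The difference lost its call without 6TCF day 0 replicate 1 or SGCF day 10 replicate 2 (0.73 to 1.17). Akap1, which anchors PKA at the outer mitochondrial membrane, rose by 0.48 at day 5 (limma adjusted p = 0.0063) and 0.37 at day 10 (adjusted p = 0.0166) in 6TCF, and by 0.34 at day 10 in SGCF (adjusted p = 0.0277). Both day 10 calls were lost without either of that arm's day 10 arrays, the 6TCF one also without either 6TCF day 0 array (0.33 to 0.41) and the SGCF one without SGCF day 0 replicate 2 (0.31 to 0.38). The SGCF call of Akap1 was lost in 5 of 11 other settings too, with 0.09 over the mean of its probe sets and 0.01 without normalization.

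The exchange factor that cAMP opens was not called. Rapgef3, which codes for Epac1, had log2 levels of 6.54 and 6.22 in SGCF at day 10, 6.60 and 6.34 in SGCF at day 0, 6.43 and 6.40 in 6TCF at day 10, and 6.51 and 6.46 in 6TCF at day 0. Its changes by day 10 were -0.09 and -0.07, with adjusted p of 0.702 and 0.77, and it was called in none of the 9 comparisons. Rapgef1 activates Rap downstream of tyrosine kinases rather than of cAMP. It fell in 6TCF by 0.60 at day 5 (limma adjusted p = 0.0151) and 0.91 at day 10 (adjusted p = 0.000748), where the SGCF change was 0.06, and the arms differed by 0.97 (adjusted p = 0.0106). The day 5 fall lost its call without either 6TCF day 0 array or 6TCF day 5 replicate 1 (-0.69 to -0.51). Rapgef6 fell by 0.50 in SGCF at day 10 (adjusted p = 0.0347), a call lost without either 6TCF day 0 array, SGCF day 0 replicate 1 or either SGCF day 10 array (-0.81 to -0.19).

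Set side by side, 8 of the 43 members were called in both arms at day 5, against 14.2% of all genes tested. Of these 6 rose in both and 2 fell in both, against 7.26% and 5.93% of all genes, and none went opposite ways, against 1.00%. At day 10, 13 members were called in both arms, against 22.7% of all genes. Of these 5 rose in both and 4 fell in both, against 11.5% and 9.07% of all genes, and 4 (Pkia, Prkar1b, Akap2 and Akap17b) went opposite ways, against 2.14%. The Akap2 and Akap17b calls are among those that other settings ended. The test of the difference itself called 6 members at day 5, 4 with a higher change in SGCF and 2 with a lower one, 14% of the 43 against 8.82% of all genes (2.85% higher and 5.97% lower). At day 10 it called 15, 10 higher and 5 lower, 34.9% against 25.4% (12.1% higher and 13.3% lower). Without normalization between arrays these were 3 and 3 at day 5, and 2 and 4 at day 10; cyclic loess gave 3 higher and 4 lower at day 5. At day 5, 10 were called without SGCF day 0 replicate 1. At day 10, 8 were called without 6TCF day 0 replicate 1, 9 without 6TCF day 0 replicate 2 and 8 without 6TCF day 10 replicate 1.

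**Figure D5:**
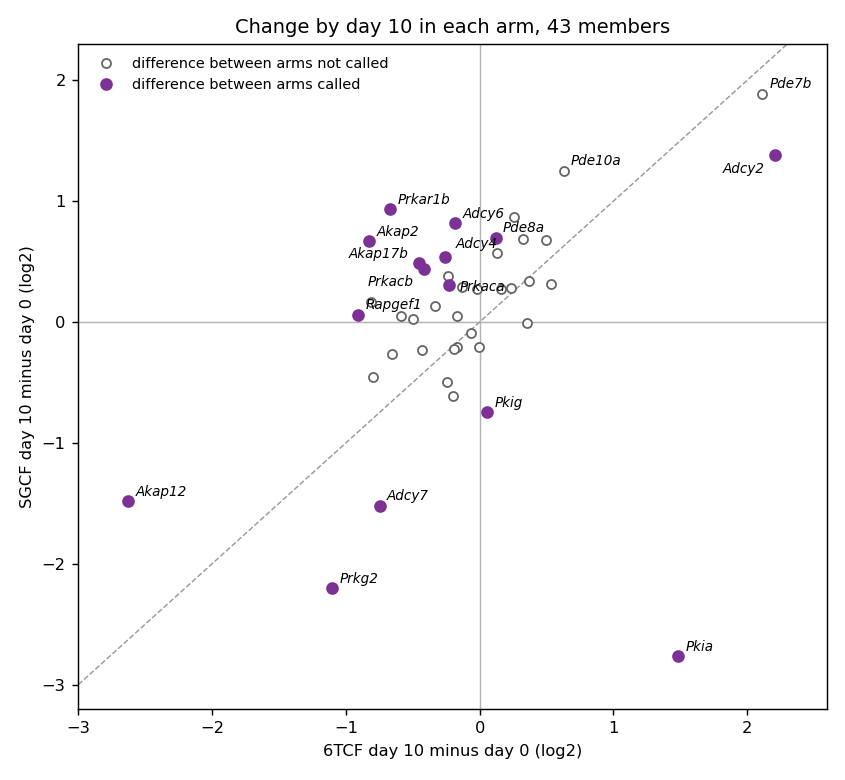
Log2 change by day 10 in SGCF (vertical axis) against that in 6TCF (horizontal axis) for the 43 members tested, 1 point a gene. Filled points are members whose change was called different between the arms, and the dashed line marks equal change. Pkia is far below the line, at -2.76 in SGCF and 1.48 in 6TCF, while Pde7b lies near it.

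The arms also differed at day 0. Compared with 6TCF day 0, SGCF day 0 had 2 members higher (Pkig and Pde6d) and 8 lower (Akap2, Akap8, Akap9, Akap12, Pde10a, Pde4dip, Prkg1 and Rapgef1), 23.3% of the 43 against 17.1% of all genes (8.52% higher and 8.61% lower). Without normalization 32 members were lower and none higher, while the median of all genes moved by -0.61, and scaling to a common median gave 4 higher and 8 lower. The count was 5 without 6TCF day 0 replicate 1, 6TCF day 0 replicate 2 or SGCF day 0 replicate 2. Of the 17 macrophage markers tested, 15 were higher in SGCF at day 0 and none lower, with a median difference of 1.10. Their part in the members' day 0 differences was not tested.

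From day 5 to day 10, 5 members rose and 4 fell in SGCF, 20.9% of the 43 against 21.5% of all genes (11.6% higher and 9.89% lower). In 6TCF 2 rose and 5 fell, 16.3% against 15.6% (8.60% higher and 6.99% lower). Both shares were near the background. Without normalization the counts were 2 and 3 in SGCF, and 3 and 2 in 6TCF. The SGCF count was 4 without SGCF day 5 replicate 1 and 4 without SGCF day 10 replicate 2. The 6TCF count was 1 without replicate 1 of day 5 or of day 10, and 3 without 6TCF day 10 replicate 2. The largest late changes were the fall of Prkg2 in SGCF, by 2.46 (limma adjusted p = 1.69e-06), and the rise of Pkia in 6TCF, by 1.20 (adjusted p = 0.00313). As a measure of RNA quality, the 3′ minus 5′ difference of 2 controls was taken, and it moved most for beta-actin in 6TCF. The beta-actin control probe sets had group means of 0.34, 0.80 and 1.01 at days 0, 5 and 10 in 6TCF. In SGCF it was 0.33, 0.44 and 0.46. For Gapdh it was 0.37, 0.49 and 0.48 in 6TCF, and -0.02, 0.10 and 0.11 in SGCF. The part of this difference in the 6TCF changes was not tested.

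Around the members, 69 other genes of the pathway were measured and 52 tested: receptors, G protein subunits, CREB family members, other cyclic nucleotide binding proteins, cGMP synthesis and CREB targets. In SGCF 7 rose and 8 fell by day 5, 28.8% of the 52 against 25.4% of all genes, and 15 rose and 7 fell by day 10, 42.3% against 38.6%. In 6TCF 12 rose and 7 fell by day 5, 36.5% against 27.6%, and 13 rose and 12 fell by day 10, 48.1% against 43.1%. Ptger2, a prostaglandin E2 receptor that raises cAMP, had SGCF log2 levels of 4.93 and 4.73 at day 0, 6.26 and 6.66 at day 5, and 7.29 and 7.02 at day 10. It rose by 2.32 in SGCF (limma adjusted p = 9.89e-07) and by 2.40 in 6TCF (adjusted p = 6.64e-07) at day 10. Ptgir, the prostacyclin receptor, which also raises cAMP, rose by 1.25 in SGCF and 1.48 in 6TCF at day 10 (limma adjusted p = 0.000664 and 0.000178). The arms were not called different for either gene at day 5 or day 10.

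Crem codes for activators and repressors that bind the CRE, the repressor ICER among them. It rose in SGCF by 1.78 at day 5 and 1.37 at day 10 (limma adjusted p = 1.76e-05 and 9.13e-05). In 6TCF it rose by 0.66 at day 5 and 1.15 at day 10 (limma adjusted p = 0.0161 and 3e-04); the day 5 call was lost without either 6TCF day 0 array or 6TCF day 5 replicate 1 (0.58 to 0.75). The arms differed by 1.11 at day 5 (adjusted p = 0.0163), a call lost without 6TCF day 0 replicate 2, 6TCF day 5 replicate 2 or SGCF day 5 replicate 1 (0.88 to 1.35). Of 14 CREB targets tested outside the members, Crem included, 7 rose and none fell in SGCF by day 10, where 20.5% of all genes were called higher and 18.2% lower. In 6TCF 4 rose and 5 fell, where 23.2% of all genes were called higher and 19.9% lower. Ppargc1a, a CREB target and coactivator of mitochondrial genes, rose in SGCF by 1.23 at day 5 and 2.68 at day 10 (limma adjusted p = 0.00338 and 6.3e-06). In 6TCF it rose by 2.70 at day 5 and 2.04 at day 10 (limma adjusted p = 8.42e-06 and 5.05e-05). The arms differed by -1.47 at day 5 (adjusted p = 0.0218), a call lost without either 6TCF day 0 array, 6TCF day 5 replicate 2, SGCF day 0 replicate 1 or either SGCF day 5 array (-1.63 to -1.29).

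Bdnf, a neurotrophin gene and CREB target, went opposite ways. It rose by 0.97 in SGCF at day 5 (limma adjusted p = 0.00438) and was 0.24 above day 0 at day 10, not called, while in 6TCF it fell by 1.27 at day 5 and 2.04 at day 10 (adjusted p = 0.000638 and 1.05e-05). The difference between the arms was 2.24 at day 5 and 2.28 at day 10 (limma adjusted p = 0.000568 and 3e-04), from a day 0 level that was 1.48 lower in SGCF than in 6TCF (adjusted p = 0.00109). Npr3, the clearance receptor of natriuretic peptides, fell in SGCF by 1.40 at day 5 (limma adjusted p = 0.000256). In 6TCF it fell by 2.23 at day 5 and 1.18 at day 10 (adjusted p = 6.14e-06 and 0.000507), again from a day 0 level that was 1.67 lower in SGCF (adjusted p = 0.000419). Its day 10 difference between the arms, 0.98 (adjusted p = 0.0258), was lost without any 6TCF day 0 or day 10 array, SGCF day 0 replicate 2 or SGCF day 10 replicate 1 (0.79 to 1.18). With the 4 day 0 arrays as 1 baseline, the day 5 calls of Bdnf and the day 10 fall of Npr3 in 6TCF were lost.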

How the data were processed

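MEF RNA was hybridised to 12 Affymetrix Mouse Genome 430A 2.0 arrays, 2 per group. The deposited values are linear probe set intensities; RMA, limma and MAS5 are listed in the submitters' processing notes, but which of them made the values is not stated. On each array 56.9% to 67.0% of the deposited intensities shared 1 fractional part, and array medians differed, so the arrays were not on a common scale. Of 22690 probe sets, 20380 had 1 symbol in the platform annotation, 691 several, 1555 were unnamed here and 64 were controls. Intensities were quantile-normalized and converted to log2(intensity + 16), and of a gene's probe sets the one brightest on average was used. The 10674 of 12393 genes with a group mean over log2 5.27, the 25th percentile, were fitted in limma 3.58.1 (R 4.3.3) with 6 group means, giving 6 residual and 5.53 prior degrees of freedom, and p-values were adjusted by Benjamini-Hochberg over them. The fit was tested on simulated data. Precision is limited by having 2 arrays per group.

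The 9 comparisons were each arm's day 5 and day 10 with day 0, day 10 with day 5, the arms at day 0, and the arms' difference in change to day 5 and day 10. PKA subunits, inhibitors and Epac were named whatever they did, other members if called and changed at least 2-fold, then up to 3 smaller examples a role and 6 other pathway genes, by largest change. The members and lists were chosen with earlier results of these data known. Alternatives were the pseudocount, normalization, filter, choice of probe set, replicate block, each arm alone, a shared day 0 baseline, and each array left out.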

Additional observations from a re-analysis of the deposited data

Results flagged for a closer look

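The results given here were flagged because limma's test of the difference itself found that the change from day 0 was not the same in the arms. Each value is the change in SGCF minus the change in 6TCF, on the log2 scale, and none is explained here. Arrays and settings that ended some of these calls, those of Pde8a and Prkaca among them, are given above. At day 5 the values were -2.47 for Pkia, 1.35 for Prkar1b, -1.16 for Adcy2, 1.09 for Prkg2, 1.07 for Akap2 and 0.97 for Adcy8. For pathway genes that are no members they were -1.47 for Ppargc1a, 2.24 for Bdnf and 1.11 for Crem. At day 10 the values for PKA inhibitors and subunits were -4.25 for Pkia, -0.80 for Pkig, 0.53 for Prkaca, 0.85 for Prkacb and 1.60 for Prkar1b. For the cyclases they were -0.83 for Adcy2, -0.77 for Adcy7, 1.00 for Adcy6 and 0.80 for Adcy4. For scaffolds, Akap12 had 1.14, Akap2 had 1.49 and Akap17b had 0.94. Prkg2 had -1.10, Pde8a 0.58 and Rapgef1 0.97, and outside the members Npr3 had 0.98 and Bdnf 2.28.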

How the results depend on the processing

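Without normalization between arrays, the number of members called was 13 in SGCF at day 10, 5 in SGCF from day 5 to day 10, 32 between the arms at day 0, and 6 for the arms' difference at day 10. With each arm fitted alone, 11 members were called in 6TCF from day 5 to day 10. Whether replicate numbers pair the arrays is not known. Deviations from the group means correlated by -0.031 to -0.021 in 6TCF and by -0.273 to 0.109 in SGCF, which with 2 arrays a group cannot settle it. With the replicate block, 5 members were called between the arms at day 0, and the other 8 counts were within 1.5 times their values. Leaving out each array in turn gave 11 to 15 members in SGCF at day 5, 16 to 23 at day 10, and 4 to 11 from day 5 to day 10. In 6TCF it gave 6 to 14 at day 5, 11 to 21 at day 10, and 1 to 10 from day 5 to day 10. Between the arms it gave 5 to 12 at day 0, 5 to 10 for the difference at day 5, and 8 to 19 at day 10. Of 149 results of named genes, 83 lost their call under at least 1 setting and 66 never did. The 3314 recomputed values include those with an array left out that the comparison itself does not use. Of these values, 2956 kept direction and call, 356 lost the call, and 2 changed sign. Those were Pde6d in 6TCF at day 10, -0.04, and Prkg1 in SGCF at day 10, -0.03, both with all 4 day 0 arrays as 1 baseline; the cause was not tested. Low signal limits Adcy8, Pde7b, Ptger2 and Ppargc1a at day 0, Npr3 in SGCF at day 5 and Pkia in SGCF at day 10. These lie near or below the filter level.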
